A study of Mus musculus with 11 samples.

Results

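The genes that make and inactivate prostaglandins were followed in whole-liver RNA of mice with steatohepatitis. The set holds 10 genes: the cyclooxygenases *Ptgs1* and *Ptgs2*, the terminal synthases *Ptgds*, *Hpgds*, *Ptges*, *Ptges2*, *Ptges3* and *Tbxas1*, and the inactivating enzymes *Ptgr1* and *Hpgd*. They were found by symbol among the 46603 genes of the deposited count table, each matching 1 gene. The set was put together with the INT-767 contrast known, and above all with the large difference in *Ptgds* known. The differences of these 10 genes are therefore given as a description, with the value in each mouse, and no *p*-value is given for them.

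All 11 mice were male *Lep ob/ob* animals, which lack leptin, 5 to 6 weeks old at the outset. They ate the AMLN diet, which is high in trans-fat, fructose and cholesterol, before and then throughout treatment, and had a baseline liver biopsy that had to show steatosis and fibrosis. The time on the diet is 15 weeks before treatment in the methods text and 12 weeks before the biopsy in a legend. INT-767, a bile acid derivative and agonist of the receptors TGR5 and FXR, was dosed orally for 8 weeks in 4 of them (10 mg/kg each day), and 7 received vehicle (carboxymethyl cellulose). The leptin deficiency, the diet, the biopsy and the gavage were shared by both groups, and no lean or chow-fed mice were among these samples. Reads counted per mouse ranged from 7966963 to 15295230 with vehicle and from 7381211 to 16022459 with INT-767.

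Prostanoids are made in steps. Phospholipases and lipases free arachidonate from membranes and neutral lipid, a cyclooxygenase turns it into prostaglandin H2, and a terminal synthase then sets which prostanoid is made. Lipocalin-type (*Ptgds*) and hematopoietic (*Hpgds*) prostaglandin D2 synthases make the same product and are unrelated proteins. The former also belongs to the lipocalins, secreted carriers of small lipophilic molecules, and the latter is a glutathione transferase typical of mast cells and macrophages. Prostaglandins are inactivated by 15-hydroxyprostaglandin dehydrogenase (*Hpgd*) and by reductases such as *Ptgr1*. In the liver, Kupffer cells and other macrophages are a well-known source of prostanoids.

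INT-767 mouse 4 stood apart from the other 3 treated livers. It held 45 counts of *Adipoq* and 64 of *Lep*, the fat cell hormones adiponectin and leptin, whereas these genes had 0 counts in all 7 vehicle livers and at most 1 count in the other INT-767 livers. *S100a9*, a neutrophil gene, was at 15.7 CPM (counts scaled to library size, here always scaled by TMM factors) in that mouse and between 0.843 and 3.17 in the other 3. Its hepatocyte markers summed to 54290 CPM, within the vehicle range of 51440 to 68130, whereas the other 3 treated livers, at 98030, 98150 and 81490 CPM in mice 1 to 3, were above every vehicle liver. Albumin (*Alb*) made up most of this sum, and the 5 genes did not move together. *Alb* and *Cps1* were above the vehicle range in mice 1 to 3 alone, and *Tat* in mouse 1 alone. *Apoa1* was above it in 3 treated mice, mouse 4 included (10670 against at most 8410 CPM). *Ttr* was below the vehicle range in 2 treated mice and above it in 0 (log2 fold change -0.32). None of the 5 genes was called by edgeR. The part of these higher hepatocyte sums in the enzyme differences was not tested. Vehicle mouse 1 was the vehicle liver most like INT-767 mouse 4 in deviations from the group means (r = 0.702). *Hpgd*, *Ptges2* and *Ptges3* were highest in mouse 4 among treated mice, and highest in mice 1 and 7 among vehicle mice. The part of this variation between mice in the enzyme differences was not tested. For the other pathway genes and the neighbours of *Ptgds*, a call that ended without INT-767 mouse 4 is given as such, and fold changes without it are given beside several results.

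*Ptgds* was close to absent in vehicle livers and present in every INT-767 liver. Vehicle mice 1 to 7 held 8, 2, 2, 4, 7, 5 and 4 counts of it, which correspond to 1.01, 0.146, 0.207, 0.498, 0.508, 0.405 and 0.233 CPM. Pooled over the 7 mice this was 0.388 CPM, with an exact 95% Poisson interval of 0.265 to 0.547 that covers counting error only. INT-767 mice 1 to 4 held 6339, 980, 202 and 161 counts, or 402, 135, 28.4 and 12.04 CPM. All 4 were above all 7 vehicle mice, and the lowest treated mouse was 11.9-fold above the highest vehicle mouse.

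The difference was of very unequal size among the treated mice. Set against the vehicle mean, *Ptgds* was 935-fold higher in INT-767 mouse 1, 314-fold in mouse 2, 66.0-fold in mouse 3 and 28.0-fold in mouse 4. The highest treated mouse was 33.4-fold above the lowest, and mouse 1 held 82.5% of all *Ptgds* counts of its group. The SD of log2 CPM was 2.25 among treated and 0.644 among vehicle mice, and 3 of the 13880 tested genes had a larger SD among the treated mice. The log2 fold change was 8.46 ± 0.90 (SE, n = 4 and 7), rank 1 among those genes. Without INT-767 mouse 1 it was 7.16, and without mouse 4 it was 8.85.

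**Figure D1:**
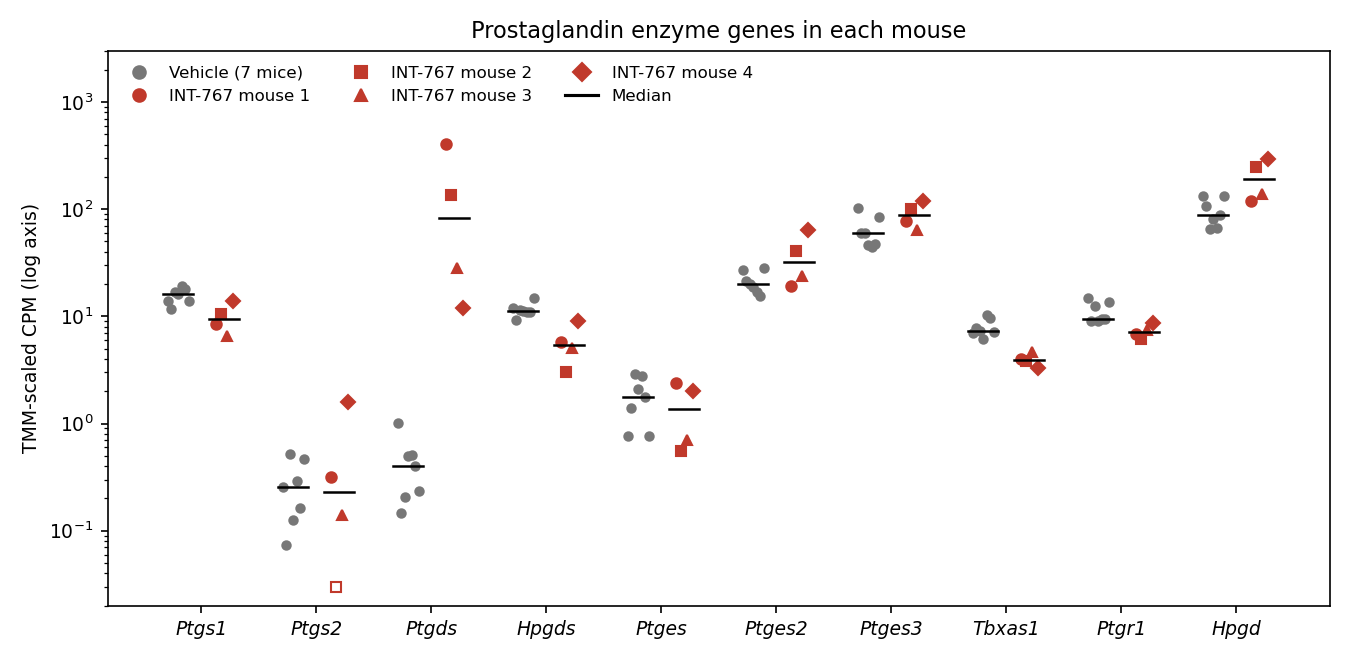
TMM-scaled CPM on a log axis for the 10 genes in each mouse, with grey circles for the 7 vehicle mice, red symbols for the 4 INT-767 mice and a black line at each group's median. The open square marks INT-767 mouse 2, which had 0 counts of Ptgs2 and is drawn at the foot of the axis; the Ptgds values of the treated mice lie between 12.04 and 402 CPM, above all vehicle mice.

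The sequence upstream of both prostaglandin D2 synthase genes is shown because these genes share a product and differed in opposite directions. The stretches come from the RefSeq promoter table for GRCm38.p6, which matched all 10 genes, and stop before the first annotated exon that the table's window reaches. *Ptgds* lies on chromosome 2 from 25466709 to 25470046 on the minus strand in 7 exon blocks, and the stretch at chr2:25469843-25469999 is intronic to a transcript that begins farther out. *Hpgds* lies on chromosome 6 from 65117293 to 65144908 on the minus strand in 6 exon blocks, and the stretch at chr6:65144909-65144980 directly precedes it. The last line gives 30 bases of *Ptgds* at chr2:25469766-25469795, within the first exon of 1 of its transcripts, with a match to TGACTCA in capitals. All are minus strand, written 5′ to 3′.
Ptgds upstream: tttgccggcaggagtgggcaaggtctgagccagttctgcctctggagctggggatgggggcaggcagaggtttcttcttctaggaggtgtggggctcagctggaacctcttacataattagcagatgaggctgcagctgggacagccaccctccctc
Hpgds upstream: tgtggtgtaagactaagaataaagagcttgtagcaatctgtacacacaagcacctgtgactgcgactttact
Ptgds TGACTCA match: gaggccaagccTGACTCAtaaatagggggt

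Within the 300-base RefSeq windows (250 bases before to 50 after the start), 3 motifs were searched on both strands. AGGTCA, the core site that nuclear receptors such as FXR recognize, was in none of the windows of the 10 genes, whereas 16.3% of all 32851 windows hold it. The full element AGGTCANTGACCT contains this core site on each strand, was in none of them either, and is in 0.00913% of all windows. TGACTCA, the sequence bound by AP-1 factors, was searched after the *Ptgds* sequence had been read. Among the 10 genes *Ptgds* was the only one that held it, as do 5.20% of all windows. Of genes near *Ptgds* described below, a window of *C8g* also held it, at position -159. Another *C8g* window and those of *Clic3* and *BC029214* did not. A match is no evidence of binding, and a missing match says only that these letters are not in this window.

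*Hpgds*, the other prostaglandin D2 synthase, was lower in all INT-767 livers than in any vehicle liver. The vehicle mice lay between 9.15 and 14.7 CPM with a median of 11.3, and INT-767 mice 1 to 4 were at 5.77, 3.04, 5.06 and 9.05 CPM. Mouse 4 was just under the lowest vehicle mouse, and mouse 2 was the lowest. The log2 fold change was -0.98 ± 0.25 (SE), which is a 1.98-fold lower level, and it was -1.30 without mouse 4.

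Compared per length (RPKM, from the exon length of each gene), the order of the D2 synthases was turned around. In every vehicle mouse *Hpgds* was above *Ptgds*, by 3.02-fold to 16.2-fold. With INT-767 *Ptgds* was above *Hpgds* in all 4 mice, by 271-fold in mouse 1, 174-fold in mouse 2, 21.9-fold in mouse 3 and 5.18-fold in mouse 4. The summed level of both was between 1.51 and 2.47 RPKM in vehicle mice and was 245, 82.5, 18.0 and 8.71 RPKM in INT-767 mice 1 to 4. In INT-767 mouse 1 *Ptgds* held 67.6% of the summed RPKM of the 10 genes, in mouse 2 28.5%, in mouse 3 12.4% and in mouse 4 2.81%, and in no vehicle mouse did it hold more than 0.425%.

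The other terminal synthases differed far less. *Tbxas1*, the thromboxane A2 synthase, lay between 6.10 and 10.4 CPM in vehicle mice with a median of 7.26, and INT-767 mice 1 to 4 were at 4.00, 3.86, 4.64 and 3.29 CPM. All 4 were below all vehicle mice, with little spread among them, and the log2 fold change was -1.01 ± 0.20. Of its exon bases 1.58% overlap a gene on the opposite strand, whose reads could be counted with it if strand was not used.

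The prostaglandin E2 synthases showed no common direction. *Ptges*, the inducible microsomal enzyme, was between 0.758 and 2.91 CPM in vehicle mice and at 2.41, 0.552, 0.703 and 2.02 CPM in INT-767 mice 1 to 4, which overlapped them, and its log2 fold change was -0.23 ± 0.48, or -0.42 without mouse 4, turning to 0.03 with the offset for GC content and length. *Ptges2*, a second membrane-associated synthase, was between 15.4 and 28.2 CPM with vehicle and at 19.2, 40.6, 23.6 and 64.5 CPM with INT-767. Mice 2 and 4 were above the vehicle range and the other 2 within it, and the log2 fold change of 0.81 ± 0.29 was 0.38 without mouse 4. *Ptges3*, a cytosolic synthase that is also the Hsp90 co-chaperone p23, was between 44.4 and 102 CPM with vehicle and at 77.9, 99.3, 63.9 and 120 CPM with INT-767, with a log2 fold change of 0.51 ± 0.25, or 0.33 without mouse 4 and 0.205 with the offset for GC content and length. Its counts are uncertain, since 18.5% of its 75-base windows also occur in pseudogenes.

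**Figure D2:**
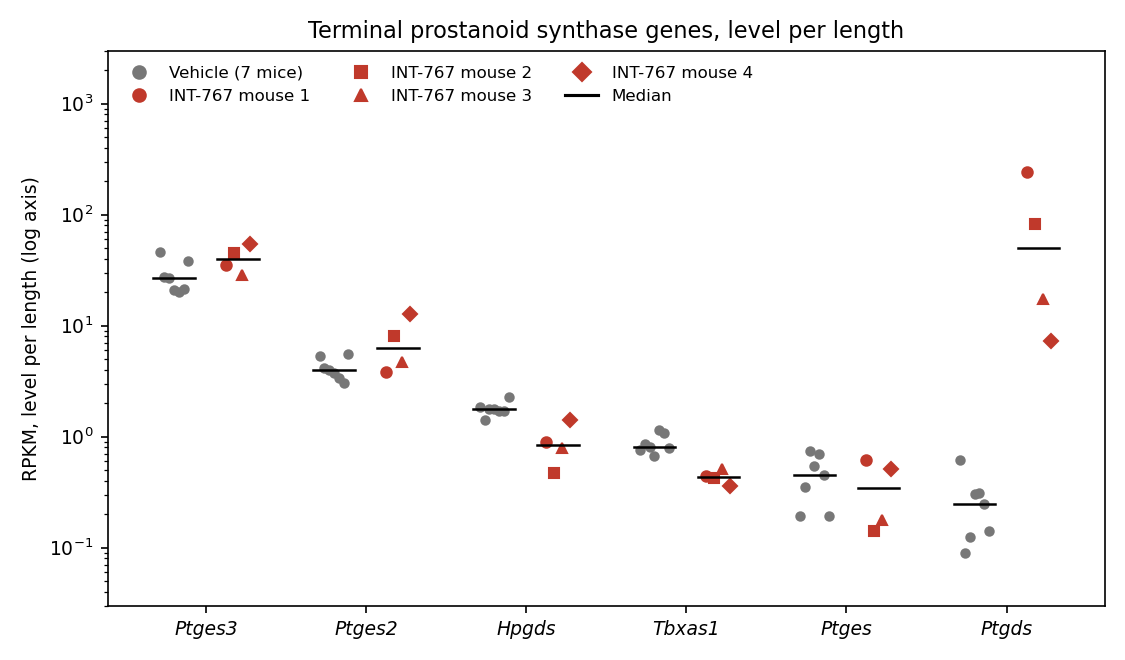
RPKM (level per length, log axis) of the 6 terminal synthase genes in each mouse, with the symbols of the plot of CPM by mouse and a black line at each group's median. Ptgds has the lowest vehicle median of the 6, at 0.245 RPKM, and reaches a median of 49.6 RPKM with INT-767, above the 40.0 RPKM of Ptges3.

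The cyclooxygenases did not follow *Ptgds*. *Ptgs1*, the constitutive enzyme, was between 11.6 and 19.0 CPM in vehicle mice and at 8.50, 10.5, 6.61 and 13.99 CPM in INT-767 mice 1 to 4. All treated mice but mouse 4 were below every vehicle mouse, and the log2 fold change was -0.65 ± 0.21, or -0.88 without mouse 4. Of the exon bases of *Ptgs1*, 3.81% overlap a gene on the opposite strand. *Ptgs2*, the inducible enzyme, had 2, 1, 5, 1, 4, 2 and 8 counts in vehicle mice 1 to 7 and 5, 0, 1 and 21 counts in INT-767 mice 1 to 4. The 0 of mouse 2 allows up to 0.414 CPM. *Ptgs2* was too low to be tested and no fold change is given for it, and its highest value was in mouse 4, the liver with the fat cell and neutrophil transcripts.

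Of the inactivating enzymes, *Hpgd* was higher with INT-767 and *Ptgr1* lower. *Hpgd*, which oxidizes the 15-hydroxyl group of prostaglandins, was between 64.7 and 134 CPM in vehicle mice with a median of 87.4, and INT-767 mice 1 to 4 were at 119, 247, 137 and 296 CPM. Mouse 1 lay within the vehicle range and the other 3 above it, and the log2 fold change was 1.05 ± 0.28 (a 2.08-fold higher level), 0.79 without mouse 4 and 0.46 with the offset for GC content and length. *Ptgr1*, which reduces 15-keto prostaglandins and oxidizes leukotriene B4, was between 9.07 and 14.9 CPM with vehicle and at 6.85, 6.21, 7.45 and 8.60 CPM with INT-767, all 4 below every vehicle mouse, with a log2 fold change of -0.61 ± 0.19. Per length, *Hpgd* was 7.08-fold to 15.9-fold above *Ptgr1* in vehicle mice and 23.7-fold to 54.2-fold above it in treated mice.

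In all, 9 of the 10 genes passed the filter on low counts, *Ptgds* only through the treated group. By edgeR's quasi-likelihood test over all 13880 genes, 2 were called higher (*Ptgds*, *Hpgd*) and 2 lower (*Hpgds*, *Tbxas1*) at an adjusted *p* under 0.05, a rule that calls 9.72% of all genes tested. Without vehicle mouse 3, 5 or 6, or without INT-767 mouse 2, 2 of the 10 genes were called, and without INT-767 mouse 4 it was 4. In 4 of the 10 genes the groups did not overlap (*Ptgds*, *Hpgds*, *Tbxas1* and *Ptgr1*), as in 7.51% of all genes tested. Since the set was chosen on this contrast, nothing is read from these counts. The median log2 fold change of the 9 genes was -0.23, and that of all genes tested -0.01.

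In vehicle livers the order of the levels per length was *Hpgd* (median 51.9 RPKM), *Ptges3* (26.9), *Ptgs1* (4.17), *Ptgr1* (4.11), *Ptges2* (3.96), *Hpgds* (1.76), *Tbxas1* (0.799), *Ptges* (0.453), *Ptgds* (0.245) and *Ptgs2* (0.0553). *Ptgs1*, *Ptgr1* and *Ptges2* could not be ordered, since *Ptgs1* was above *Ptgr1* in 3 of 7 mice and *Ptgr1* was above *Ptges2* in 6 of 7. *Ptges* was above *Ptgds* in 6 of 7 mice, and every other neighbouring pair kept its order in 7 of 7. Among the 10 genes *Ptgds* ranked 8 or 9 in vehicle mice and 1, 2, 3 and 4 in INT-767 mice 1 to 4. Among the 46091 genes with a length, its rank by RPKM in these 4 livers was 179, 680, 2121 and 4465.

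The rest of the pathway was described by a list of 68 further genes, of which 41 were tested. By edgeR's test with Benjamini-Hochberg adjustment over all genes, 5 rose, 3 fell and 33 did not pass, where 5.04% of all genes tested were called higher and 4.68% lower. One of the 5, *Akr1b7*, entered the test only through the treated group. With scaling by library size alone these became 2 and 4, and the calls over all genes went from 700 higher and 649 lower to 332 and 1026. Without INT-767 mouse 2 they became 1 and 0, and without INT-767 mouse 4 they were 4 and 3. Without vehicle mouse 3, 4, 5 or 6 there was 1 higher call, and without vehicle mouse 7 there were 3. The median log2 fold change of the 41 genes was -0.17.

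Among further synthases and reductases 1 of 7 tested genes was called, and it was higher. *Akr1b7*, an aldose reductase family member with prostaglandin F synthase activity, had 1 to 16 counts in vehicle mice, or at most 0.932 CPM, and 205, 76, 17 and 21 counts in INT-767 mice 1 to 4. In CPM all treated mice were above all vehicle mice, and mouse 4, at 1.57 CPM, was again the lowest. Since it too passed the filter only through the treated group, its test is given with no filter beyond 1 count, where the log2 fold change was 3.63 (edgeR adjusted p = 0.00356). Of its exon bases, 27.2% overlap a gene on the opposite strand. *Ptgis*, the prostacyclin synthase, was at 6.89 ± 1.58 CPM with vehicle and 3.94 ± 1.59 CPM with INT-767 (SD) and did not pass (edgeR adjusted p = 0.0781).

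Both further inactivating reductases rose. *Ptgr2* was at 87.8 ± 10.2 CPM with vehicle (SD, n = 7) and at 127, 155, 113 and 119 CPM in INT-767 mice 1 to 4, all above the vehicle range (log2 fold change 0.55 ± 0.14, edgeR adjusted p = 0.0290). *Zadh2*, another 15-oxoprostaglandin reductase, was between 85.9 and 125.2 CPM with vehicle and at 141, 150, 125 and 198 CPM with INT-767, of which 3 were above the vehicle range (0.54 ± 0.15, edgeR adjusted p = 0.0451). Without mouse 4, its highest value, the log2 fold change of *Zadh2* was 0.38 and it was not called (edgeR adjusted p = 0.124). These calls are near the threshold: in 11 fits that each left out 1 mouse, *Ptgr2* was not called in 5 and *Zadh2* in 7, and neither was called with scaling by library size alone. Of the exon bases of *Ptgr2*, 31.98% overlap a gene on the opposite strand.

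Among the genes of arachidonate supply 1 fell. Of 18 phospholipase and lipase genes, 5 were tested. *Pla2g12a*, a secreted phospholipase A2, was between 20.4 and 39.3 CPM with vehicle and at 9.32, 6.07, 17.99 and 9.28 CPM with INT-767, all below the vehicle range (log2 fold change -1.37 ± 0.28, edgeR adjusted p = 0.0139, and 0.0612 without INT-767 mouse 2). Among those that did not pass, the highest levels per length were those of *Mgll*, the monoacylglycerol lipase that supplies arachidonate in liver (343 ± 48.1 against 293 ± 66.7 CPM, edgeR adjusted p = 0.368), *Pla2g12b* (50.4 ± 25.4 against 86.3 ± 47.1 CPM, 0.181) and *Pla2g6* (61.7 ± 19.4 against 57.0 ± 16.3 CPM, 0.788). None of the 6 fatty acid enzymes, such as the desaturases *Fads1* and *Fads2*, and neither prostanoid transporter, *Slco2a1* and *Abcc4*, was called by edgeR at an adjusted *p* under 0.05.

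No prostanoid receptor was called among the 5 of 9 that were tested. The receptors of prostaglandin D2 were at the limit of detection: *Ptgdr* had 0 counts in all 11 livers and *Ptgdr2* had 2 counts in each group. The receptors with the highest levels were *Ptger1*, a prostaglandin E2 receptor, at 11.6 ± 4.84 CPM with vehicle and 4.85 ± 3.12 CPM with INT-767 (SD, edgeR adjusted p = 0.0856), *Ptgfr*, the prostaglandin F receptor, at 5.51 ± 2.36 and 6.49 ± 3.24 CPM (0.614), and *Ptger4*, at 3.78 ± 1.19 and 2.70 ± 0.838 CPM (0.255). Whole liver mixes cell types, so that fewer cells of a type and less RNA per cell cannot be told apart.

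The other branches of arachidonate metabolism held 4 called genes. Of 17 leukotriene and lipoxygenase genes 8 were tested and 1 fell, the dipeptidase *Dpep2*, which converts leukotriene D4 (2.95 ± 0.547 against 1.07 ± 0.496 CPM, log2 fold change -1.41 ± 0.30, edgeR adjusted p = 0.0148). It was not called without INT-767 mouse 2 (-1.30, edgeR adjusted p = 0.0595), and without mouse 4 its log2 fold change was -1.82. Its counts are uncertain, since 30.4% of its 75-base windows occur in other gene models. All 6 epoxygenase genes were tested. *Cyp2j5* rose (313 ± 80.3 against 534 ± 86.0 CPM, edgeR adjusted p = 0.0299), *Cyp2j9* fell (16.4 ± 3.78 against 9.85 ± 2.45 CPM, 0.0496) and *Cyp2c44* rose (35.2 ± 3.76 against 102 ± 95.9 CPM, 0.0436). For *Cyp2c44* the treated mice were split, at 241, 72.7, 75.2 and 20.2 CPM in mice 1 to 4. Mouse 4 was below every vehicle mouse, and without mouse 1 the log2 fold change went from 1.54 to 0.67 with an edgeR adjusted p = 0.122, whereas without mouse 4 it was 1.88. *Cyp2j9* was not called without mouse 4 (-0.81, edgeR adjusted p = 0.0752). *Cyp2j5* was not called in 5, *Cyp2c44* in 8 and *Cyp2j9* in 9 of the 11 fits that each left out 1 mouse.

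**Figure D3:**
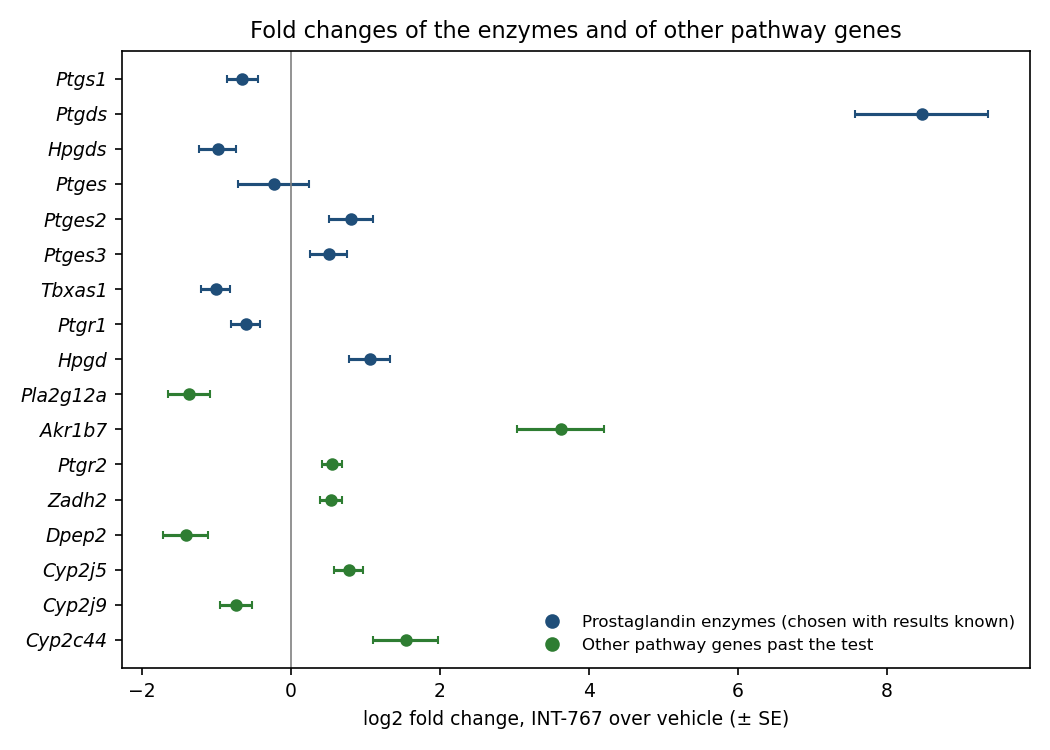
Log2 fold change of INT-767 over vehicle with its SE for the 9 tested prostaglandin enzyme genes (blue, chosen with this contrast known) and for the 8 other pathway genes that passed the test (green). Ptgds lies at 8.46 and Akr1b7 at 3.62, and the other genes lie between -1.41 and 1.54.

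Several genes beside *Ptgds* were also higher. Within 100 kb of its gene body there are 16 genes, of which 10 were tested, 3 were called higher and 0 lower, where 5.04% of all genes tested were called higher. One of the 3, *Clic3*, entered the test only through the treated group, so nothing is read from this count. The nearest neighbour on one side, *BC029214* (*Paxx* in GENCODE M21, a DNA repair factor), starts 5614 bases away. It was between 5.43 and 8.41 CPM in vehicle mice and at 23.3, 71.7, 13.2 and 31.3 CPM in INT-767 mice 1 to 4, all above the vehicle range (log2 fold change 2.29 ± 0.35, edgeR adjusted p = 0.00400). Without INT-767 mouse 2 its log2 fold change was 1.66 (edgeR adjusted p = 0.0101). *Clic3*, which encodes a chloride intracellular channel protein and lies inside the *BC029214* gene body on the opposite strand with no shared exon bases, had 0 to 9 counts in vehicle mice and 50, 143, 10 and 32 counts in INT-767 mice 1 to 4. These are 3.17, 19.7, 1.41 and 2.39 CPM, all above the highest vehicle value of 0.653. *Clic3* passed the filter only through the treated group, so its test is given with no filter beyond 1 count (log2 fold change 4.11, edgeR adjusted p = 0.0120). With the filter its log2 fold change was 4.12 ± 0.76, and 2.65 without INT-767 mouse 2.

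On the other side, *C8g*, the gamma chain of complement component C8 and like *Ptgds* a lipocalin, lies 28604 bases away. It was at 113 to 323 CPM in vehicle mice and at 279, 637, 304 and 747 CPM in INT-767 mice 1 to 4, so that mice 1 and 3 lay within the vehicle range (log2 fold change 1.46 ± 0.34, edgeR adjusted p = 0.0219). It was not called without INT-767 mouse 2 (0.0929) or mouse 4 (0.0579). The nearest gene on that side, *Lcn12*, another lipocalin, was too low to be tested. The other 7 tested genes, among them *Abca2*, *Traf2* and *Edf1*, did not pass. The order of the treated mice differed between the neighbours: *Ptgds* was highest in mouse 1, *BC029214* and *Clic3* in mouse 2 and *C8g* in mouse 4.

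**Figure D4:**
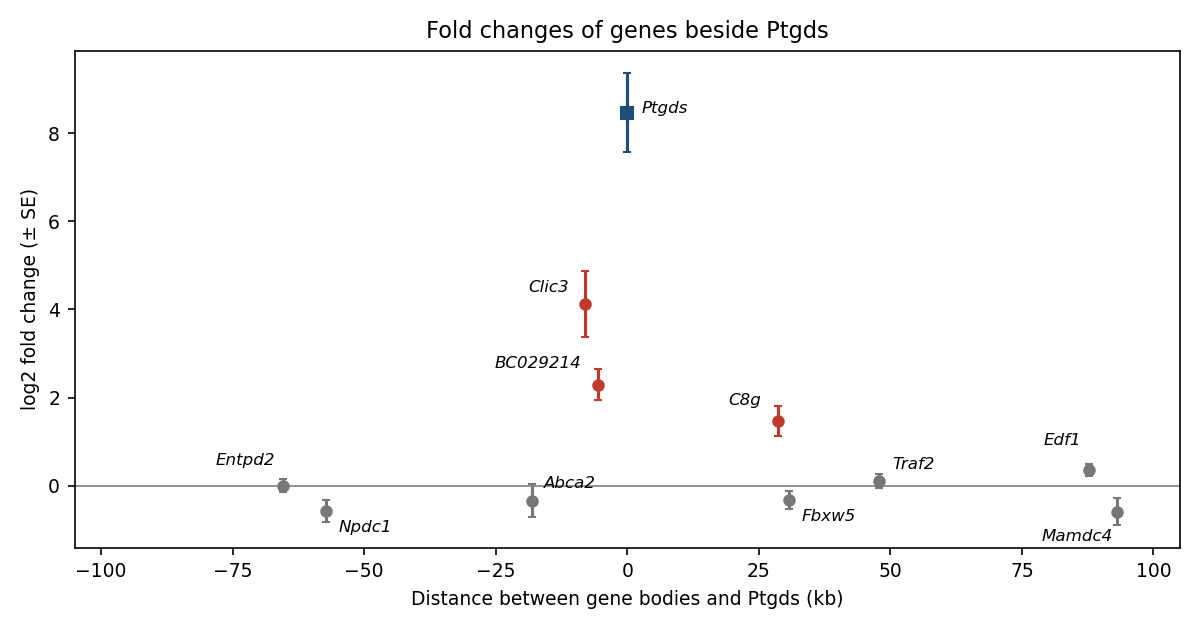
Log2 fold change with its SE against the distance in kb between each tested gene's body and that of Ptgds (blue square at 0), with called genes in red and the others in grey. BC029214 and Clic3 on one side and C8g on the other lie above 1, and the other 7 genes lie between -0.60 and 0.36.

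Among the tested genes whose log2 CPM was most like that of *Ptgds* over the 11 mice were *Bdh2* (Pearson's r = 0.974), *Lmod3* (0.968) and *Sult1a1* (0.964). The points share the group difference and the scaling, and no test is given. *Lmod3*, like *Ptgds*, was close to absent in vehicle mice, at 0.162 to 0.380 CPM. It was at 2.60, 1.24, 0.984 and 1.27 CPM in INT-767 mice 1 to 4, and it too passed the filter on low counts only through the treated group. *Bdh2*, a cytosolic dehydrogenase of the short-chain family, followed the order of the mice: it was between 3.36 and 5.70 CPM with vehicle and at 21.1, 14.2, 9.56 and 8.30 CPM in INT-767 mice 1 to 4. *Sult1a1*, a phenol sulfotransferase, was between 211 and 256 CPM with vehicle and at 569, 554, 467 and 309 CPM with INT-767, in the same order of mice.

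Markers of other cells differed beside the enzymes. Of 6 macrophage and monocyte markers, all tested, 3 fell: *Cd68* (log2 fold change -1.16 ± 0.22, edgeR adjusted p = 0.00944), *Csf1r* (-1.14 ± 0.19, 0.00498) and *Itgam* (-1.73 ± 0.29, 0.00498). The summed level of the 6, led by *Lyz2*, was between 351 and 631 CPM in vehicle mice and at 246, 214, 253 and 560 CPM in INT-767 mice 1 to 4. Of 5 markers of lipid-associated macrophages, led by *Gpnmb*, 1 fell (*Cd9*, -0.76 ± 0.16, 0.0154), and none of 5 Kupffer cell markers, led by *Cd5l*, was called. *Cd68*, *Csf1r* and *Itgam* were below every vehicle mouse in all 4 treated mice, mouse 4 included, whereas the sum in mouse 4 lay within the vehicle range. Beside them, *Hpgds* and *Tbxas1*, which macrophages are known to express, were below the vehicle range in all 4 treated mice, and *Ptgs1*, which was not called, in all but mouse 4. Ratios of the enzymes to the macrophage markers depended on the marker used. Per 100 CPM of the summed list, *Hpgds* was between 1.89 and 3.25 CPM with vehicle and at 2.35, 1.42, 2.00 and 1.62 CPM in INT-767 mice 1 to 4, with mice 2 and 4 below the vehicle range. Per 100 CPM of *Csf1r* alone, an alternative chosen after seeing the data, it was between 8.33 and 16.4 CPM with vehicle and at 13.02, 7.56, 11.6 and 16.9 CPM with INT-767, with mouse 2 below the vehicle range and mouse 4 above it. Per 100 CPM of the list without *Lyz2*, also chosen after seeing the data, *Hpgds* was below the vehicle range in mouse 2 alone, at 3.59 CPM against 4.56 to 7.39 CPM with vehicle. *Tbxas1* was below the vehicle range in mouse 4 alone per summed list, and per *Csf1r* it was also above that range in 2 treated mice. *Ptgs1* was above the vehicle range in 1 treated mouse per summed list and in 3 per *Csf1r*. The part of the macrophages in these differences was not tested.

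Mast cells, which are rich in *Hpgds*, left few reads: the 5 markers, led by *Mcpt4*, had between 1 and 11 counts per group where they were detected, none was tested, and 9 of the *Mcpt4* counts were in INT-767 mouse 4. Of 5 platelet markers, led by *Itga2b*, 2 were tested and none was called, with a summed level between 7.09 and 10.4 CPM in vehicle mice and at 4.25, 5.52, 3.51 and 8.15 CPM in INT-767 mice 1 to 4. Platelets are a main site of *Tbxas1* and *Ptgs1*, and their part was not tested.

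Mesothelial and fat cell markers are given for *Ptgds*, which is best known from the meninges and is also expressed in fat. Of 5 mesothelial markers, led by *Wt1*, 4 were tested and 1 rose, *Lrrn4*, from 1.39 ± 0.288 CPM with vehicle to 4.82, 9.24, 3.09 and 4.71 CPM in INT-767 mice 1 to 4 (log2 fold change 1.97 ± 0.28, edgeR adjusted p = 0.00329). The summed list was between 3.73 and 14.9 CPM with vehicle and at 13.6, 17.9, 14.05 and 11.6 CPM with INT-767, so that only mouse 2 was above the vehicle range. Of the fat cell list, led by *Cidec*, 2 of 5 genes were tested, and *Adipoq* and *Lep* had the counts given above. *Cidec*, a lipid droplet gene that steatotic hepatocytes also express, fell (-1.41 ± 0.35, edgeR adjusted p = 0.0297). The part of mesothelial cells and of fat cells in the *Ptgds* difference was not tested.

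**Figure D5:**
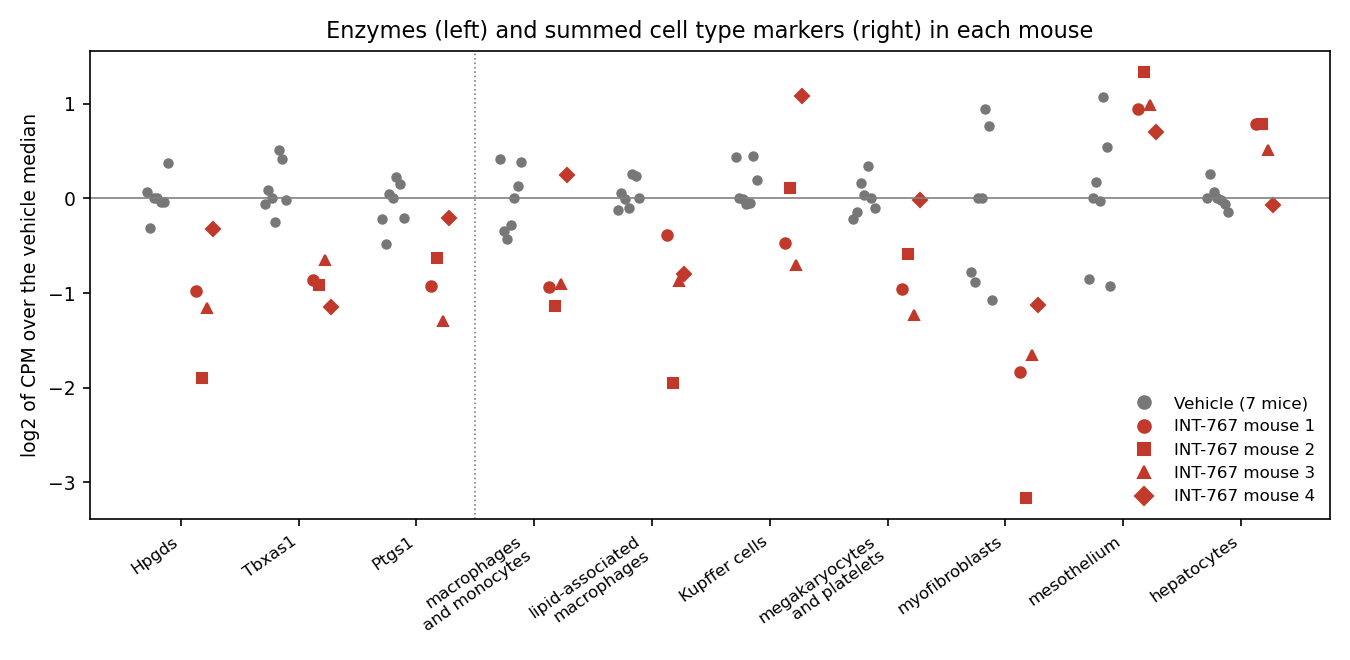
Log2 of the CPM in each mouse over the vehicle median, for Hpgds, Tbxas1 and Ptgs1 (left of the dotted line) and for the summed markers of 7 cell types (right), with grey circles for vehicle and red symbols for INT-767 mice. The macrophage sum of INT-767 mouse 4, at 560 CPM, lies within the vehicle range of 351 to 631 CPM, and the other 3 treated mice lie below it.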

How the data were processed

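Liver RNA of 11 mice (7 vehicle, 4 INT-767) was analysed, with groups taken from the sample titles. The authors made strand-marking mRNA libraries (75 sequencing cycles), mapped reads to GRCm38 with STAR (2.4.0 in the submitters' processing notes), and deposited raw counts per gene. The study's supplementary methods name another version of STAR. How reads were counted, and whether by strand, is not given in the sources used here. All 11 sample columns were used, and within each group no library was a copy of another (pairs across groups were not compared).

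From these counts, CPM were computed with edgeR's TMM factors, and RPKM with exon lengths of GENCODE M21 (GRCm38). Genes were kept by filterByExpr (minimum count 10, total 15), and 13880 were tested with edgeR 4.0.16 (glmQLFit, robust, and glmQLFTest) under R 4.3.3, with treatment as the only term and Benjamini-Hochberg adjustment, threshold 0.05. The SE comes from the fold change and the F statistic. The tests were run on simulated data first. Floors for a count of 0 are 3 counts, and cover counting error only, as PCR copies were not marked by molecular identifiers.

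The 10 genes and all lists were chosen with earlier results of these data known. Named were the 10 genes, every called pathway gene, up to 3 receptors and 3 phospholipases with the highest level among those not called, called genes within 100 kb of *Ptgds* and its nearest neighbours, the 5 genes most correlated with it, and the most abundant gene of each marker list used. Other genes were named after their values were seen. Some of the genes chosen by this rule are not reported here. The 15 marker lists served to describe other cell types. Alternatives were other scalings, no filter, a block on the mouse number, DESeq2 1.42.0, limma-voom (limma 3.58.1), an offset for GC content and length with and without the block, and leaving out each mouse. Nothing in the sources says whether libraries were prepared in batches.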

Additional observations from a re-analysis of the deposited data

Results flagged for a closer look

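Among 42 groups examined (the 10 enzymes and the 11 called genes beside them, in vehicle and in INT-767 mice), 2 held a mouse far from the others, where chance marks about 1 group in 20. *Ptgds* in vehicle mouse 1, at 1.01 CPM from 8 counts, was the highest of 7, with the next at 0.508 CPM, and the gap took 0.583 of the group's range. *Clic3* in INT-767 mouse 2, at 19.7 CPM, was the highest of 4, with the next at 3.17 CPM, and the gap took 0.904 of the range. The value of *Ptgds* in INT-767 mouse 1 did not meet this measure.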

How the results depend on the processing

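The log2 fold change of *Ptgds* was between 7.42 (limma-voom) and 8.50 over the alternatives with all mice, and between 7.16 and 8.85 when each mouse was left out in turn. For the other tested enzymes, 157 of 160 alternative values moved by less than the spread between mice. The others were *Hpgd*, at 0.46 with the offset for GC content and length and 0.52 with the block added, and *Tbxas1*, at -0.67 with both. The count of called pathway genes depended most on the setting. Higher calls went from 5 to 2 with library size alone and with no filter, to 3 with upper-quartile factors and with limma-voom, and lower calls went from 3 to 6 with DESeq2. Over all genes there were 1349 calls, and 2811 with DESeq2. Leaving out each mouse gave 1 to 5 higher and 0 to 4 lower pathway calls, 2 to 6 of the enzymes, 2 to 3 neighbours of *Ptgds* and 274 to 3276 genes in all. Over all genes the fewest calls came without INT-767 mouse 2 and the most without vehicle mouse 1, and the cause was not tested. Scaling by library size alone moved the median log2 fold change of all genes from -0.01 to -0.22, with 332 higher and 1026 lower calls in place of 700 and 649, and upper-quartile factors gave 467 and 812. None of the 11 called pathway and neighbouring genes changed direction in these alternatives. By CPM in place of RPKM, 8 of 9 neighbouring pairs kept the order of their vehicle medians. Numbers shared by mice of both groups did not pair them: same-numbered mice correlated at -0.69, 0.215, 0.148 and -0.482 in their deviations from the group means. With this replicate block 0 pathway genes in either direction, 0 enzymes, 0 neighbours and 0 genes in all were called by edgeR, with 1347 at an unadjusted p under 0.05, also 0 of each with the offset for GC content and length added to the block (1681 at an unadjusted p under 0.05), and the *Ptgds* log2 fold change was 7.83 with the block. Mouse numbers 5 to 7 occur only with vehicle, so that in a fit with the block those mice carry no information on treatment. Few degrees of freedom are then left, and the absence of calls with the block cannot decide whether the calls without it hold. Depth limits *Ptgds* in vehicle mice and *Ptgs2* in all mice, where most mice held fewer than 10 counts of each.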

Other observations

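The markers of 7 further cell types were measured in the same livers. Myofibroblast markers, led by *Col3a1*, fell in 2 of 6 tested genes, the collagens *Col1a1* and *Col1a2*, by edgeR's test at an adjusted *p* under 0.05. Their summed level was between 289 and 1167 CPM in vehicle mice and at 169, 67.5, 192 and 277 CPM in INT-767 mice 1 to 4, all below the vehicle range. None was called among the tested markers of sinusoidal endothelium (5, led by *Stab2*), quiescent stellate cells (5, led by *Reln*), cholangiocytes (5, led by *Sox9*), T cells (3, led by *Cd8a*), B cells (4, led by *Cd79b*) and neutrophils (2, led by *S100a9*). The summed neutrophil markers were between 6.88 and 11.4 CPM in vehicle mice and at 5.39, 7.31, 1.27 and 26.4 CPM in INT-767 mice 1 to 4, and mouse 4 was the only one above the vehicle range.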
